A study of Arabidopsis thaliana with 6 samples.

Results

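AT1TE52925 is a transposable element (TE) in the centromere-flanking part of Arabidopsis thaliana chromosome 1. Transcript models were taken as its own when the deposited lists paired them with this TE identifier. This gave 5 of 829 models and 1 of 344 TE loci, with 1 model in each of the 5 mutant libraries and none in wild type. The element was chosen by measured values, namely the length of its model, its long reading frame and its presence in all 5 mutant libraries. Structure, length, frame and reads are therefore given as a description, without tests.

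The libraries were full-length PCR-cDNA of polyadenylated RNA, read on an Oxford Nanopore sequencer, from immature flower buds of stages 1 to 12 in the Columbia ecotype. They covered ddm1 rdr6 polV (replicates A and B), ddm1 polV, ddm1 rdr6, ddm1 and wild type (wt), and every mutant carried the ddm1 mutation. DDM1 is a chromatin remodeler that keeps TEs methylated, RDR6 copies RNA into double strands that are cut into small interfering RNAs, and Pol V acts in RNA-directed DNA methylation. Replicate B was sequenced alone in round 2 after 13 PCR cycles, at a higher depth per the labels, and the other 5 libraries were sequenced together in round 1 after 14 cycles. Per the labels, wt RNA was extracted with TriZOL and mutant RNA with TriZOL LS. The labels name neither the mutant alleles nor the number of plants per library, nor whether A and B were grown or sampled separately. Every genotype other than the triple mutant had 1 library, so no difference between genotypes had a replicate check.

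hAT elements are DNA transposons that move by cut and paste. Their transposase binds short inverted repeats at the element's ends, and insertion copies a short stretch of the target on both sides. Some plant genes descend from hAT transposases. DAYSLEEPER (AT3G42170) is one, a protein with a BED zinc finger and a hAT dimerization domain that is needed for normal Arabidopsis development.

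The ends of the element were found in the reference sequence (TAIR10.1) by their inverted repeats. Within 1000 bp outside the transcript, 1 pair of ends met both conditions set for it. The terminal 11 bases were inverted copies at 10 or more positions, and the 8 bases outside were the same on both sides. The element so bounded ran from 16070137 to 16074320 on chromosome 1 (4184 bp). The sequences below show both ends, with the 8-base repeat of the flanking DNA in capitals, at chr1:16070129-16070147 and chr1:16074310-16074328 on the plus strand.
5′ end: CTAAGAATtaggcctgggc
3′ end: gcccaggactaCTAAGAAT
The terminal bases matched at 10 of 11 positions after reversal. The repeat length of 8 bases, that known for hAT insertions, was a condition of the search and is not a finding.

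All 5 models were on the plus strand and lay inside these ends. They began 213 bp after the 5′ end of the element and ended 277 to 286 bp before its 3′ end. The stretch of the element before the first base of the models (chr1:16070137-16070349) is shown because the model started at the same base in every library that had one. The capitals mark TATATA, the only match to TATATA or TATAAA in the 250 bases before the transcript, searched on both strands.
Element before the transcript: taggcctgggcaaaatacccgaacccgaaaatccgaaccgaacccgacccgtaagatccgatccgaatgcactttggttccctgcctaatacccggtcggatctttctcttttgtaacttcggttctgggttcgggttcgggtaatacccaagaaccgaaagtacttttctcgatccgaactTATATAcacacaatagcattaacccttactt
The hexamer began 31 bases before the transcript. TATATA or TATAAA occurred at 9.35% of 27443 annotated protein-coding gene starts in the window from 40 to 21 bases upstream, and TATATA alone at 5.25%. Exon 1 also held AAACCCTA, the telo-box sequence found early in many plant genes, at positions 38 and 77 of the transcript and not on the other strand. At least 1 AAACCCTA was found in the first 143 bases after 3.70% of the gene starts, and 2 or more after 0.186%. These matches describe letters in the sequence only.

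Splicing of the listed models was the same in all 5 mutant libraries. Each model had 4 exons, and the 3 introns had identical coordinates in every library. Exon 1 covered 16070350 to 16070492 (143 nt), exon 2 16071341 to 16073486 (2146 nt) and exon 3 16073587 to 16073642 (56 nt). Exon 4 began at 16073824. The introns were 848, 100 and 181 nt long, all GT-AG. Intron 1 was longer than 93.5% of the 509 distinct introns of all TE models, whose median was 102 nt, while intron 2 was near that median. The introns had 28.3%, 29% and 28.7% GC, against 42.0%, 39.4%, 35.7% and 30.9% in exons 1 to 4. The junctions are shown with the first or last 2 intron bases in capitals, and with the ATG that follows intron 1.
Intron 1 donor: tcgatccgagGTacttttca
Intron 1 acceptor: tcttttgcAGATGgattctt
Intron 2 donor: cttgagaaagGTaactttat
Intron 2 acceptor: tctttttcAGagtttcaaac
Intron 3 donor: cgactacaagGTaacttcat
Intron 3 acceptor: gatgtaacAGgaacaagtca
All 3 introns began with GTA, and introns 2 and 3 shared the donor GTAACTT.

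**Figure D1:**
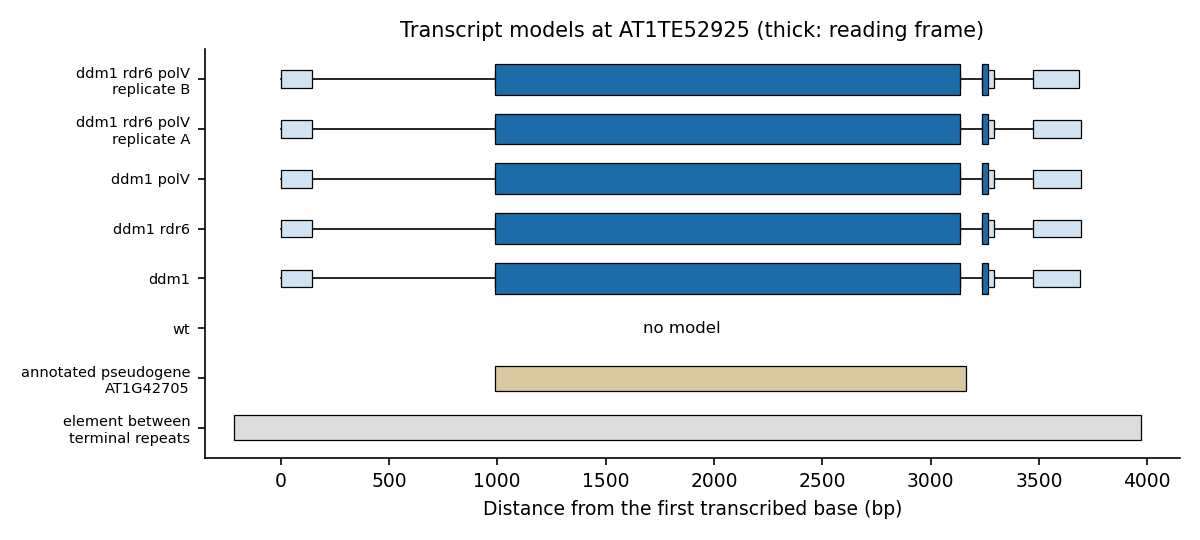
Exons (boxes), introns (lines) and the reading frame (thick boxes) of the AT1TE52925 model in each mutant library, above the annotated pseudogene AT1G42705 and the element between its terminal repeats. The horizontal axis is the distance from the first transcribed base in bp. The 5 models differ only in their last base, by up to 9 bp, and the pseudogene covers exon 2 and the start of intron 2.

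The 5′ end of the models was the same in all 5 mutant libraries and the 3′ end nearly so. Each model gives 1 start and 1 end for a cluster of reads, so the spread of read ends within a library cannot be seen. All 5 models started at 16070350. They ended at 16074034 in replicate B, 16074042 in replicate A, 16074042 in ddm1 polV, 16074043 in ddm1 rdr6 and 16074038 in ddm1. The last 30 bases of the longest model (chr1:16074014-16074043) are shown with the last base of the model in each library in capitals.
3′ end of the transcript: cttttattatgtcatgctttAttgAtttTA
The poly(A) signals AATAAA and ATTAAA were absent from the last 50 bases of each model, as they were from most TE models, of which 19.4% held one or both. The 20 genomic bases after the end held 3 to 5 A in the 5 libraries, with no more than 2 in a row. The median over all 829 models was 5 A (range 0 to 19). An oligo(dT) primer can also start at A bases inside a longer RNA, and its part in these ends was not tested.

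Of the 28 loci found in all 5 mutant libraries and not in wt, 12 had the same 5′ end in every library for their most-read model. The range over libraries at AT1TE52925 was 0 bp at the 5′ end and 9 bp at the 3′ end, against medians of 1.5 and 12 bp over the 28 loci. Of 16 such loci that were spliced, 11 kept 1 chain of introns in all 5 libraries. In 3 of these 11, AT1TE52925, AT3TE58655 and AT4TE10210, every library also held only 1 model. AT1TE52925 was the longest of the 3, with up to 2565 nt, against 523 nt for AT3TE58655 and 822 nt for AT4TE10210. Even with the 108 reads of replicate B, AT1TE52925 had a single listed model there. Of the 29 loci with at least 108 reads in that library, 9 had 1 model, 4 of them spliced, and the median was 2 models (up to 6). No model in any library lay antisense to AT1TE52925 or overlapped part of it. Clusters of fewer than 10 reads are not listed, so a rarer form or antisense transcript would not be seen. This limit weighs most in ddm1 and replicate A, where the element had 12 and 15 reads.

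The spliced transcript carried 1 long open reading frame. It ran from the ATG at 16071341 to a stop ending at 16073615, 2175 nt or 724 codons, and was the same in all 5 models. It filled 84.8% of the ddm1 rdr6 model, whose next longest frame was 225 nt. The sequence is that of the reference genome, since the deposited models carry no read sequence. The ATG was the first triplet of exon 2, so the 143 nt of exon 1 were the entire leader. The leader held 0 ATG triplets, and a form that kept intron 1 would hold 8 before the frame.

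The reference annotates AT1G42705 here as a pseudogene of 1 exon, from 16071341 to 16073512, which differs from the models at its 3′ end. It begins at the same ATG but reads into intron 2, where it stops after 723 codons, with 0 stop codons inside. The spliced frame and the annotated one share 715 codons, after which the spliced frame has 9 more, read across the junction into exon 3, and the annotated one 8. Both endings are shown from the same base, with the stop in capitals, and with the first 2 intron bases also in capitals in the unspliced one.
Spliced, exon 2 joined to exon 3: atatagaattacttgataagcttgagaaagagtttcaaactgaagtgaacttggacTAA
Unspliced, as annotated: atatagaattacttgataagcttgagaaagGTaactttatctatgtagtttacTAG
The unspliced stretch lies at chr1:16073457-16073512. The spliced stop lay 27 nt before the last exon junction, and the stretch after it measured 238 to 247 nt in the 5 models. The neighbouring protein-coding genes AT1G42700 and AT1G42710 lay 2758 and 3549 bp away.

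Translated, the frame was most like DAYSLEEPER among 27444 annotated proteins, 1 per nuclear protein-coding gene. Identity was 25.5% over 705 aligned positions (BLASTP e-value 2.12e-55), which covered residues 23 to 686 of the frame and 37 to 674 of the 696 residues of DAYSLEEPER. The only other match was AT1G18560, also named for a BED zinc finger and a hAT dimerization domain, with 23.8% identity over 685 positions (1.53e-29). In all, 16 proteins were named for hAT or DAYSLEEPER, and the rest of these gave no match at the e-value limit of 1e-05. DAYSLEEPER also has a long intron just before its ATG. Intron 1 was 848 nt in AT1TE52925, against 666 nt in both annotated transcripts of DAYSLEEPER, whose coding sequence begins 3 nt into exon 2. The files list only models paired with TEs, and none overlapped DAYSLEEPER, so its level cannot be set beside that of the element.

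The frame had many relatives in the genome, none of them with a TE model. A translated search found 41 other regions (e-value 1e-20), with identities of 22.7% to 98.2%, and 0 of them overlapped a model on either strand in any library. Clusters of fewer than 10 reads are not listed, and only 344 TE loci had a model in any library. The share of all annotated TEs or pseudogenes with a model was not counted. The 0 therefore does not set these relatives apart from other TEs. Of the 41 regions, 33 covered at least 50% of the frame, 32 in annotated pseudogenes and 1 in DAYSLEEPER. Their longest genomic ATG-to-stop frames, with 300 bp added on each side, had a median of 966 nt. None reached the 2172 nt that the element itself has without splicing. At least 1800 nt was found in 5, of which 4 were pseudogenes and 1 was DAYSLEEPER (2091 nt). The longest, 2118 nt, was in the pseudogene AT3G62520 (43.5% identity). Frames that would be completed by splicing were not looked for.

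Only 2 relatives were near-identical at the DNA level (90% or more in aligned pieces of at least 50 nt), and neither held the 5′ part of the transcript. The copy on chromosome 2 (1649686 to 1651890, minus strand) was 95.01% identical and covered 52.4% of the element and 57.4% of the frame. It held element bases 2 to 141 joined directly to bases 2132 to 4184, so that 1990 bases were missing between, and it was flanked on both sides by GTTAAAATC, a 9-base repeat. The copy on chromosome 4 (7292238 to 7293752, minus strand) was 97.5% identical and held bases 2681 to 4184, with 32.1% of the frame. Neither held the TATATA hexamer, which begins at base 183 of the element, or exon 1. Both held the 3′ part of the transcript, and 0 models lay at either copy. A read of the 3′ part alone could align to any of the 3 places, whereas the 5 models here began in exon 1, which is present in 1.

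**Figure D2:**
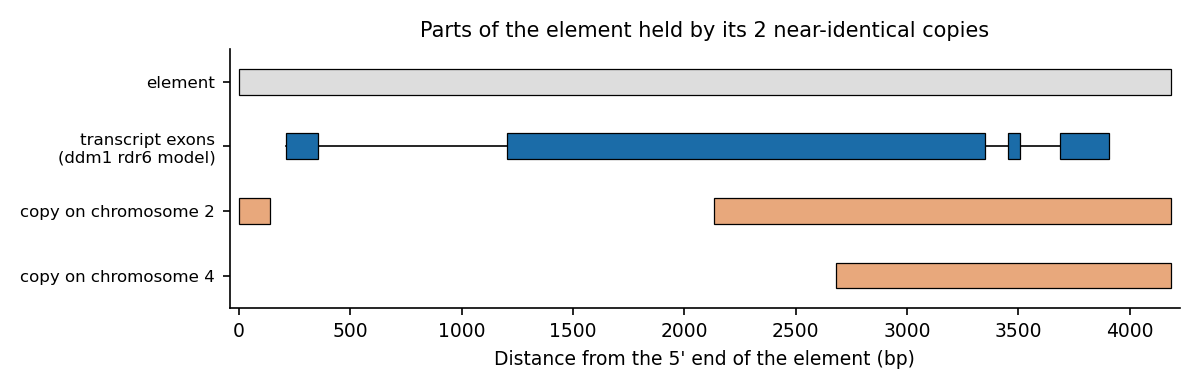
Parts of the 4184-bp element that its 2 near-identical copies hold, drawn as boxes along the distance from the 5′ end of the element in bp, below the exons of the ddm1 rdr6 model. The chromosome 2 copy keeps both ends and lacks 1990 bases between them, and the chromosome 4 copy keeps 1504 bases at the 3′ end.

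1 other TE locus had a model that matched a hAT-named protein. AT5TE74320 (chromosome 5, 20630646 to 20632207) had 52 reads in replicate B and no model elsewhere, as 1 model of 3 exons and 668 nt. It matched DAYSLEEPER at 31.9% identity over 119 positions, and its longest frame was 306 nt.

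Reads at AT1TE52925 were counted from the number that ends each model name, taken as the reads in the model's cluster. The files list no cluster of under 10 reads, and all totals here are sums of the listed clusters. The element had 108 reads in replicate B (exact Poisson 95% interval 88.6 to 130), 15 in replicate A (8.40 to 24.7) and 38 in ddm1 polV (26.9 to 52.2). It had 27 in ddm1 rdr6 (17.8 to 39.3) and 12 in ddm1 (6.20 to 21.0), and no model in wt. Replicate B was thus highest and ddm1 lowest, with replicate A just above ddm1, and the intervals of replicate A and ddm1 overlapped widely. The wt library held 6 TE models with 136 reads in all, so a cluster of fewer than 10 reads at AT1TE52925 would not be seen. In these bulk samples, fewer cells with the transcript and less transcript per cell cannot be told apart.

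Most of the spread in reads was shared with the TE reads of the whole library. Replicate B had 7.20 times the reads of replicate A at the element and 7.38 times its TE cluster reads in all. Against ddm1, the element had 3.17 times the reads in ddm1 polV and 2.25 times in ddm1 rdr6, where all TE reads were 3.55 and 2.58 times those of ddm1. Replicate B had 9 times and replicate A 1.25 times the reads of ddm1 at the element, while all TE reads were 14.1 and 1.91 times those of ddm1. As a share of TE cluster reads, the element made up 0.631% in replicate B (Clopper-Pearson 95% interval 0.518 to 0.762), 0.647% in replicate A (0.363 to 1.07) and 0.883% in ddm1 polV (0.626 to 1.21). It made up 0.863% in ddm1 rdr6 (0.570 to 1.25) and 0.990% in ddm1 (0.513 to 1.72). On this base the 5 intervals overlapped, and the highest share was 1.57 times the lowest while reads differed 9-fold. The mean of the triple mutant was 0.639% ± 0.0113 (SD, n = 2). This SD is far smaller than the counting error of replicate A alone (0.363 to 1.07), so it does not measure replicate precision. With TE reads of loci found in all 5 mutant libraries as the base, the order changed and the replicates lay at its 2 ends. The share was then 1.72% in replicate B, 1.17% in replicate A, 1.64% in ddm1 polV, 1.38% in ddm1 rdr6 and 1.25% in ddm1. With reads of multi-exon models as the base, shares spread more widely, from 0.984% in replicate B to 3.33% in ddm1. The narrow range of shares thus does not hold for every base, since it widened on the multi-exon base. On the base of loci found in all 5 mutant libraries it stayed narrow (1.17% to 1.72%), but the order changed. The intervals given above cover counting error only, and treat reads as independent. PCR reads without molecular identifiers are not independent molecules, so the intervals may be too narrow even for that.

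**Figure D3:**
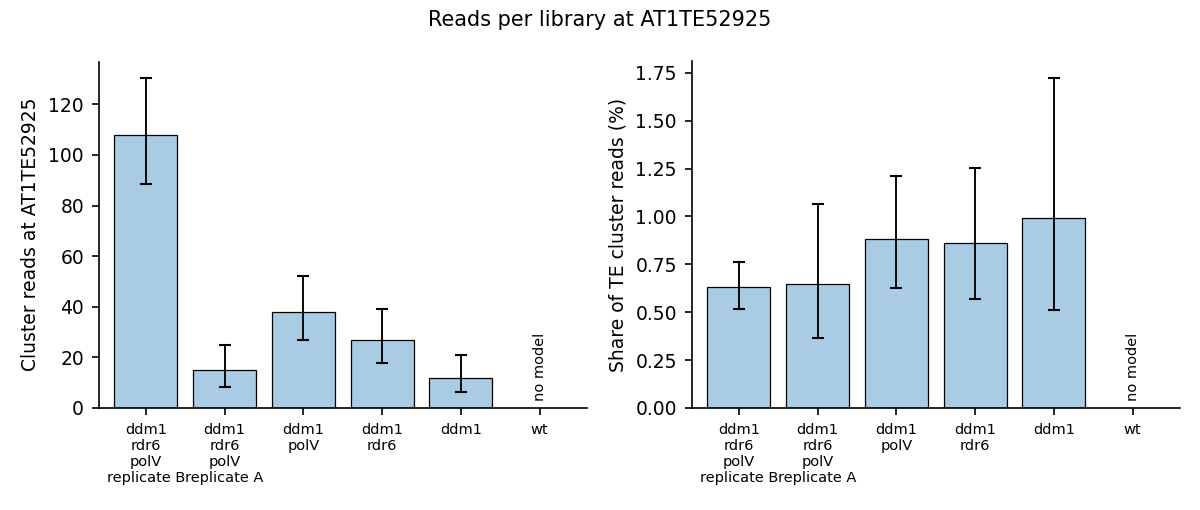
Cluster reads (left) and percent of all TE cluster reads (right) at AT1TE52925 in each library. Bars are single libraries. Whiskers are exact 95% intervals of counting error that treat reads as independent, Poisson on the left and Clopper-Pearson on the right. Reads run from 12 to 108, while shares stay between 0.631% and 0.990%.

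By the read-pattern measure, the 27 other loci with models in the same 5 libraries were ranked on the mean absolute difference of their centred log2 shares from those of AT1TE52925. The closest was AT2TE15660 (chromosome 2, 3595881 to 3597578), with a difference of 0.12, 160 reads in replicate B, 22 in replicate A, 45 in ddm1 polV, 45 in ddm1 rdr6 and 18 in ddm1. AT4TE67560 followed (0.23), at 14283605 to 14284593 on chromosome 4, with 425, 56, 115, 70 and 32 reads in the same order of libraries. AT1TE27295 came next (0.24), at 8457303 to 8458339 on chromosome 1, with 257, 54, 77, 60 and 24 reads. Without replicate B the closest locus was instead AT4TE10210 (0.075), which ranked 25 with all 5 libraries (1.256), and without replicate A it was AT1TE27295 (0.096). The median over the 27 loci was 0.54 and the largest difference 2.08. The measure rests on 5 libraries that differ in depth, and counting error at 12 and 15 reads is of the size of these differences.

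The nearest TE loci with a model had models in some of the libraries of AT1TE52925 but not in all of them. AT1TE52795, 56844 bp upstream on the minus strand, had 123 reads in replicate B, 12 in replicate A and no model in the other libraries. AT1TE52985, 21005 bp downstream on the minus strand, had 12 reads in replicate B alone. Of the 344 TE loci with a model, 28 had a model in every mutant library and none in wt. Lacking this pattern therefore does not set these neighbours apart from other TE loci.

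The spliced model was among the longest of each mutant library. It measured 2556 nt in replicate B, 2564 nt in replicate A, 2564 nt in ddm1 polV, 2565 nt in ddm1 rdr6 and 2560 nt in ddm1. Its rank by length was 17 of 432 models in replicate B, 2 of 91 in replicate A and 4 of 145 in ddm1 polV. It was 3 among the 107 models of ddm1 rdr6 and 2 among the 48 of ddm1. Medians over the models of these libraries were 709.5, 639, 723, 738 and 618.5 nt in the same order. The next longer models were AT1TE62470 in replicate B (2634 nt, 18 reads), AT2TE26855 in replicate A (3060 nt, 14 reads) and AT2TE20205 in ddm1 polV (2636 nt, 10 reads). They were AT3TE50025 in ddm1 rdr6 (2699 nt, 10 reads) and AT3TE50670 in ddm1 (2733 nt, 10 reads). The next shorter was AT1TE44450 in replicate A (2200 nt), ddm1 rdr6 (2294 nt) and ddm1 (2200 nt), AT3TE57470 in ddm1 polV (2431 nt) and AT5TE63610 in replicate B (2477 nt).

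The models longer than AT1TE52925 had fewer reads than it in each mutant library. AT1TE52925 had 108 reads in replicate B, against 70 for the most-read longer model. The same pair of values was 15 against 14 in replicate A, 38 against 13 in ddm1 polV, 27 against 13 in ddm1 rdr6 and 12 against 10 in ddm1. Among models with at least as many reads as AT1TE52925 in the same library, it was therefore the longest in each of the 5. These sets held 29 models in replicate B, 50 in replicate A, 26 in ddm1 polV, 37 in ddm1 rdr6 and 42 in ddm1. The margin was 1 read in replicate A and 2 in ddm1, which is within counting error. The element was chosen for its length and the read limit was its own count, so this first place is a description only.

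**Figure D4:**
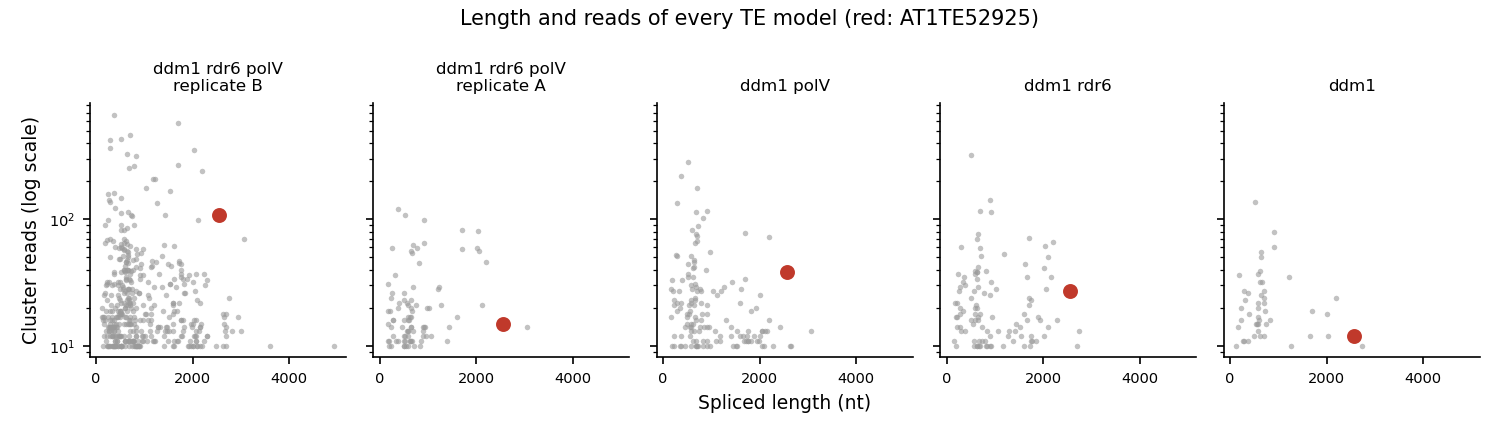
Spliced length in nt (horizontal) and cluster reads on a log scale (vertical) of every TE model in the 5 mutant libraries, with AT1TE52925 in red. In each panel no grey point lies both to the right of the red point and above it.

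Its reading frame ranked higher than its length. The 2175-nt frame was the longest of any TE model in replicate A, ddm1 rdr6 and ddm1. It ranked 2 in ddm1 polV, after AT2TE20205 (2238 nt, 10 reads), and 3 in replicate B. There the longer frames were those of AT5TE20395 (4215 nt, 10 reads), also the longest model of that library, and AT3TE70590 (2574 nt, 13 reads). Over all 829 models, 3 had a longer frame, and the median was 222 nt. Each of those 3 frames came from 1 model in 1 library, with 10 or 13 reads, while the AT1TE52925 frame was found in 5 libraries. The element was chosen for its long frame and its presence in these 5 libraries, so this contrast is a description only.

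**Figure D5:**
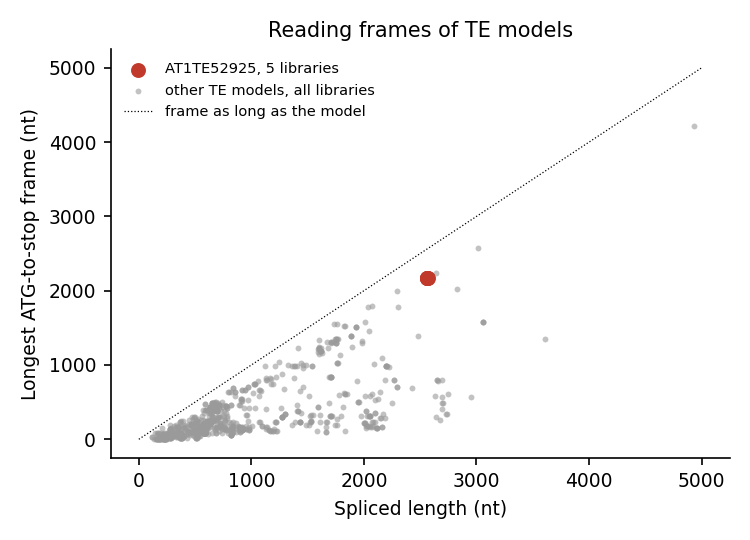
Longest ATG-to-stop frame against spliced length, both in nt, for every TE model of all libraries, with the 5 AT1TE52925 models in red on nearly the same spot. The dotted line marks a frame as long as the model, and 3 grey points lie above 2175 nt.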

How the data were processed

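Each library came with a set of transcript models and a list that pairs models with TE identifiers. The submitters' processing notes name minimap2 and TAIR10, and the file's source column names pinfish, which clusters long reads into models. Versions, cluster settings and the pairing rule were not found in the labels or files. The whole number ending each model name (10 or more) was read as cluster reads, which the files do not state. Coordinates are the deposited ones (1-based), and TAIR10.1 gave sequence and annotation. Of 509 introns, 98.4% were GT-AG on it.

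Models overlapping by 1 bp or more of exon on a strand formed loci. Frames ran from ATG to stop on spliced reference sequence. Copies and relatives were searched with BLAST+ 2.17.0 (pieces within 3000 bp joined) on nuclear chromosomes and on proteins translated from annotated coding sequences (e-value 1e-05). Frame and end searches were tested on simulated data. Intervals were computed in Python 3.11.15 with scipy 1.17.1. Named loci were the element, hAT-matching loci, the 3 closest in read pattern, length neighbours and nearest loci. Loci from the comparisons of constancy, frame length and reference relatives were named after their values were seen. The element, rules and alternatives were chosen with earlier results of these data known. No test was run, since every genotype but ddm1 rdr6 polV had a single library.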

Additional observations from a re-analysis of the deposited data

How the results depend on the processing

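The reads at AT1TE52925 were the same in every library when all overlapping models were counted, on the same or on either strand, and the introns were the same in 5 libraries with or without a tolerance of 10 bp. Only the paired models overlapped and their introns were identical, so these settings could not change either value. The frame grew to 2316 nt without an ATG, because exon 1 holds no stop in that frame. Shares rose when only reads of multi-exon models formed the base, to 0.984% in replicate B, 1.22% in replicate A, 1.54% in ddm1 polV, 1.82% in ddm1 rdr6 and 3.33% in ddm1. With loci of all 5 mutant libraries as the base they were 1.72%, 1.17%, 1.64% and 1.38% in the first 4 of these libraries. A smaller base raises every share by construction, but not evenly. On the multi-exon base the share rose from 0.631% to 0.984% in replicate B and from 0.990% to 3.33% in ddm1, so the libraries spread further apart. By genomic span, the length rank was 9 in ddm1 polV and 4 in replicate A, and among multi-exon models it was 1 in ddm1.

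The log2 ratio of reads in ddm1 rdr6 polV over ddm1 polV was 0.69 with both replicates and ran from -1.34 without replicate B to 1.51 without replicate A. Over ddm1 rdr6 it was 1.19 and ran from -0.85 without replicate B to 2.00 without replicate A, so the direction turned with the replicate in both, and the cause was not tested. On the base of all TE reads, the log2 ratio of shares was negative without either replicate, from -0.48 to -0.45 over ddm1 polV and from -0.45 to -0.41 over ddm1 rdr6. On the base of loci in all 5 mutant libraries this did not hold, since the share of replicate B was above and that of replicate A below both double mutants. Without replicate A or without replicate B, 2 of the 3 loci closest in read pattern were kept, and the closest locus changed both times. Likeness on reads gave the same 3, since the library totals cancel. No paired analysis was possible because no 2 genotypes share replicates.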
